A study of Mus musculus with 37 samples.

Results

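Spleens of mice that had rested for 1 week after 10 social defeats were compared with spleens of mice that had not been defeated, across all genes. Members were the 4 rested and 4 control spleen libraries as the labels name them, 8 of the 37 libraries in all. Social defeat is a stress procedure in which a mouse is overpowered by an aggressive opponent, here once a day. The mice of every group were wild-type C57BL/6N, and age and sex are not given in the labels used here. The rested libraries are named D1, D2, D3 and D8 and the controls C1 to C4. Spleens after 1 defeat (2 libraries), 4 defeats (2) and 10 defeats without rest (6) entered the same model, and bone marrow of 3 control and 4 rested mice served as the second tissue. The labels do not say how the libraries relate to cages, litters or days, so the p-values measure only the spread between these libraries, which may be technical in part.

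The mouse spleen filters blood in its red pulp and holds B and T lymphocytes in its white pulp. Unlike the adult human spleen, it keeps a capacity to make blood cells, and it widens this production under anaemia, infection or stress, which is called extramedullary haematopoiesis. Red cell precursors can be followed through their transcription factors, the haem pathway, membrane proteins and finally globin. Granulocyte precursors make primary granule proteins first and secondary granule proteins later, and megakaryocytes carry the genes of platelets. As a check of the tissue, the B cell receptor gene Cd79a was at 708 ± 36.4 in controls and 421 ± 149 in rested mice (SD, n = 4 each), and Spic, the transcription factor of red pulp macrophages, was at 47.2 ± 4.34 in controls and 47.6 ± 14.9 in rested mice (SD, n = 4 each).

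Values were abundances in the scale the authors deposited, with differences given on log2(value + 1). The spacing of low values placed the depth at about 6454000 to 34850000 reads in controls and 11650000 to 25490000 reads in rested libraries. Rested D2 stood apart from the other rested libraries. Its summed abundance was 2652290 against 987936 to 1015790 in the other rested libraries and 709253 to 878919 in controls, and its globin genes took 58.8% of the sum. Its values also fell with transcript length. The slope was taken in log2 abundance per 10-fold length, relative to the mean of the controls. The length of a gene was the median over its annotated transcripts, short ones included. It was -0.35, -0.004 and -0.065 in D1, D3 and D8 and -0.619 in D2. A slope this steep, below -0.5, was shared by 4 of the 6 libraries after 10 defeats, so results are also given without these 5 libraries. Control C3 held more erythroid transcripts than the other controls, with 23.1% globin against 10.6% to 12.5%.

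Globin genes together took 14.5% ± 5.78 of the summed abundance in controls and 40.1% ± 13.4 in rested spleens (SD, n = 4 each). The lowest rested library, D1 at 27.8%, lay above the highest control, and an exact two-sided permutation test gave p = 0.0286, the smallest 4 against 4 libraries allow. Without D2 the rested mean was 33.8% ± 5.97 (SD, n = 3) and the exact permutation p was 0.0571.

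**Figure D1:**
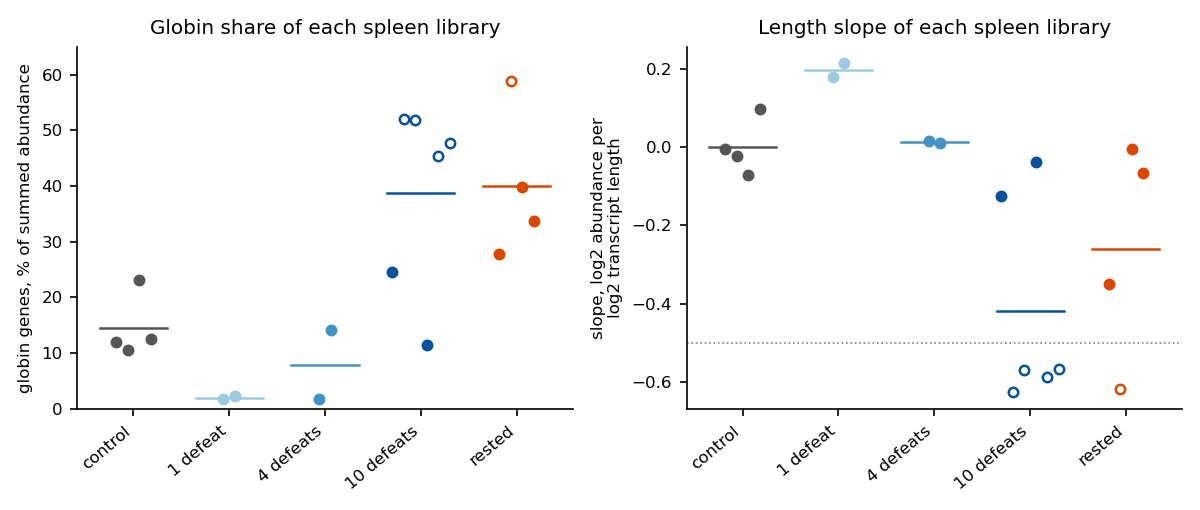
Share of the summed abundance held by globin genes (left, percent) and length slope (right) in each of the 18 spleen libraries. The slope is of log2 abundance on log10 transcript length relative to the mean of the controls, although the axis label reads log2 length. Points are libraries, lines are group means, and open points are the 5 libraries with a slope below -0.5. The rested libraries lie between 27.8% and 58.8% globin and the controls between 10.6% and 23.1%, and 1 rested library, D2, falls below the dotted line.

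After the week of rest, transcripts of neutrophil precursors, eosinophils, basophils, megakaryocytes and red cell precursors were higher than in undefeated mice, and single genes of lymphocytes and stroma were lower. Median changes of the gene lists were 3.34 for secondary granules, 1.88 for the red cell membrane and 1.15 for megakaryocytes and platelets, on the log2 scale. Across 13945 genes tested with limma, 421 were higher (3.02%) and 591 lower (4.24%) in rested than in control spleen at an adjusted p under 0.05. Leaving out predicted genes, pseudogenes and antigen receptor segments, the 12 largest rises were all genes of the granulocyte series: Camp, Ngp, S100a9, S100a8, Lcn2, Elane, Prtn3, Ltf, Wfdc21, Ms4a3, Ear1 and Chil3, with log2 changes from 4.89 to 6.78. The 12 largest falls under the same rule were smaller, from -1.87 to -2.62, led by Pax5. Among the segments left out, 7 of 66 T cell receptor J segments fell and none rose, among them Traj3, which averaged 14.9 in controls and was listed at 0 in all 4 rested libraries. Depth was estimated from genes longer than 600 bases, so the reads behind such values of short segments were not determined. In 1245 genes (8.93%) all 4 rested libraries lay above all 4 controls, and in 2525 (18.1%) all 4 lay below. The median change over all genes was -0.18 as deposited, -0.03 with quantile normalization, 0.01 with median-ratio rescaling, -0.27 with totals made equal outside the globin genes and -0.67 with totals made equal, so small changes of a list are to be read against these medians. Without the 5 libraries of steep slope, 754 genes were higher (5.41%) and 1495 lower (10.7%), and 922 of the 1012 genes called with all libraries were among them. The count depended on single libraries: it was 270 without C1, 202 without C2, 206 without C4, 483 without D1 and 240 without D2. The share of higher genes among the calls was 41.6% as deposited, 33.8% with totals made equal (130 higher, 255 lower), 54.0% with quantile normalization (735 higher, 626 lower), 58.6% with median-ratio rescaling (429 and 303) and 69.1% with totals made equal outside the globin genes (318 and 142).

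Transcription factors of the red cell series were higher after rest. Of 18 tested genes of erythroid transcription and Epo receptor signalling 7 rose, where 3.02% of all genes did, and none fell, with a median of 0.13 over all 18, which was -0.44 with totals made equal. Gata1, the factor that sets the erythroid and megakaryocyte programme (chrX:7959260-7978071, GRCm38), was at 4.32, 5.38, 16.2 and 6.86 in controls C1 to C4 and 23.8, 35.7, 43.1 and 29 in rested D1, D2, D3 and D8. All rested libraries were above all controls, and control C3 was the nearest to them. The change was 2.01 ± 0.33 (SE, adjusted p = 0.00362). Klf1, the activator of globin and red cell membrane genes (chr8:84901928-84905291), was at 6.39, 7.18, 30.6 and 6.72 in controls C1 to C4 and 37.1, 32.9, 75.9 and 45.2 in rested D1, D2, D3 and D8. Here C3 came close to D2, the lowest rested library, the change was 2.07 ± 0.50 (SE, adjusted p = 0.0241), and leaving out C1, C2, C4 or D2 ended the call (adjusted p up to 0.0899). Epor, the receptor for erythropoietin (chr9:21958897-21963506), was at 4.2, 4.63, 17.9 and 5.82 in controls C1 to C4 and 24, 43.8, 31.1 and 27.3 in rested D1, D2, D3 and D8. Its change of 2.02 ± 0.38 (SE, adjusted p = 0.0076) kept the call whichever single library was left out, and was not called with totals made equal (adjusted p = 0.058), nor was Gata1 (adjusted p = 0.0742). Also higher were Hemgn at 3.11 ± 0.56, Nfe2 at 2.96 ± 0.53, Tal1 at 2.66 ± 0.46 and Gfi1b at 1.96 ± 0.39, the last a repressor needed for red cells and platelets. With single libraries left out 6 or 7 of the 18 were called, and with totals made equal 3. Kit, the stem cell factor receptor of early erythroid progenitors, was at 8.85 ± 0.889 in controls and 6.12 ± 2.37 in rested mice (SD, n = 4 each), -0.53 ± 0.30 (SE, adjusted p = 0.23).

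Because factors of the GATA family bind the letters AGATAA, the promoter of Epor is shown as the window from 250 bases before to 50 after its RefSeq start (GRCm38.p6, chr9:21963527-21963826, minus strand), with the match to the motif in capitals. The match reads as the reverse strand TTATCT and begins 54 bases before the start.
Epor: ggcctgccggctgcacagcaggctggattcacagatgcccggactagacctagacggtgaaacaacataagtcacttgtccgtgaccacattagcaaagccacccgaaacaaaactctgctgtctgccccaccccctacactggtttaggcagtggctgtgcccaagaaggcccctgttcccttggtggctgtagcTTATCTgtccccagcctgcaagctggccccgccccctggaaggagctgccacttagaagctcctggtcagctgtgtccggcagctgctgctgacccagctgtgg
Searched on both strands, AGATAA was in 4 of 23 promoters of the erythroid factor list (17.4%), in 7 of 29 of the red cell membrane list (24.1%) and in 2 of 18 of the haem list (11.1%). It was in 11.2% of all 32851 promoters of the table and in 6.76% of those of the tested genes. The motif CCNCNCCC, which KLF factors recognise, was in 73.9% of the erythroid factor promoters, 83.3% of the haem, 62.1% of the red cell membrane and 33.3% of the globin promoters, against 66.2% of those of the tested genes and 49.5% of all in the table. A match describes the letters in the window and no binding was measured.

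Genes of the haem pathway were higher after rest as well. Of 18 genes 12 rose, where 3.02% of all genes did, and none fell, with a median of 1.67. Without the steep libraries 13 rose, where 5.41% of all genes did. Cpox, coproporphyrinogen oxidase (chr16:58670292-58717636), was at 12.7, 13.3, 29.7 and 14 in controls C1 to C4 and 35.2, 45, 77.9 and 69.4 in rested D1, D2, D3 and D8. Rested libraries were all above controls, with C3 well above the other controls. Its change of 1.67 ± 0.34 (SE, adjusted p = 0.011) kept the call whichever single library was left out. Further enzymes rose at successive steps: Alad at 1.82 ± 0.40, Uros at 2.55 ± 0.69, Urod at 1.83 ± 0.49 and Fech, which inserts the iron, at 2.11 ± 0.47. The mitochondrial carriers Slc25a38, which brings in glycine, and Abcb10 rose by 2.43 ± 0.65 and 2.30 ± 0.44. Alas2, the first and rate-limiting enzyme of the erythroid pathway, was at 274, 212, 479 and 204 in controls C1 to C4 and 513, 1226, 1217 and 769.9 in rested D1, D2, D3 and D8. All rested values were above all controls, yet the change of 1.67 ± 0.58 (SE, adjusted p = 0.0818) did not pass the test. Leaving out C1, C2, C4 or D2 changed the number of haem genes called by over 1.5 times, to as few as 2, and with totals made equal 7 of the 18 were called.

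Red cell membrane and late erythroid genes formed the largest group that rose: 24 of 36 rose, where 3.02% of all genes did. None of them fell, and their median was 1.88. Their summed abundance was 875 to 2242 in controls and 2669 to 6746 in rested mice. Rhag, a membrane gas channel (chr17:40811126-40840754), was at 6.01, 3.84, 22.9 and 4.64 in controls C1 to C4 and 27.8, 62.4, 64.7 and 59.6 in rested D1, D2, D3 and D8. The lowest rested library, D1, was at 1.21 times control C3, which stood well above the other controls. The change was 2.66 ± 0.48 (SE, adjusted p = 0.00609), and the call was kept whichever single library was left out. Slc4a1, the anion exchanger band 3, rose by 2.66 ± 0.57 and Epb42, protein 4.2 of the membrane skeleton, by 3.09 ± 0.64. The late erythroid ubiquitin ligase genes Trim10 and Trim58 rose by 3.22 ± 0.70 and 1.92 ± 0.38, and the carbonic anhydrase Car2 by 2.88 ± 0.50. The large membrane skeleton genes Sptb and Ank1 did not pass, at 0.84 ± 0.54 and 1.23 ± 0.44. The glucose transporter Slc2a1 was at -0.72 ± 0.32 and did not pass. Between 7 and 25 of the 36 were called when 1 library was left out, with losses of over 1.5 times without C1, C2, C4 or D2. With totals made equal 10 of the 36 were called, and 18 with totals made equal outside the globin genes. Whether more red cell precursors or more of these transcripts per cell were present cannot be told apart in bulk spleen, here and for every group below.

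Among 8 tested globin genes 2 rose, where 3.02% of all genes did. In 6 all rested libraries lay above all controls, as in 8.93% of all genes. Hbb-bs, a major adult beta globin (chr7:103826534-103828096), was at 39826, 47399, 85305 and 33484 in controls C1 to C4 and 135625, 1118270, 159164 and 162031 in rested D1, D2, D3 and D8. The rested libraries other than D2 lay close together, the lowest at 1.59 times the highest control, while D2 was at 6.9 times the next. The change of 2.38 ± 0.99 (SE, adjusted p = 0.129) did not pass. Hba-a1, an adult alpha globin, averaged 20514 ± 11211 in controls and 70078 ± 29558 in rested mice (SD, n = 4 each), 1.82 ± 0.66 (SE, adjusted p = 0.0919). The 2 that rose were the theta globin genes Hbq1b at 3.13 ± 0.85 and Hbq1a at 1.79 ± 0.50, and neither was called without C1, C2, C4, D2 or D3. Hbb-bs and Hbb-bt, Hba-a1 and Hba-a2, and Hbq1a and Hbq1b are near-identical pairs, so how reads were shared within a pair is uncertain. The embryonic genes Hbb-y and Hbb-bh1 were at 0.17 ± 0.23 and 0.36 ± 0.44, and Hbb-bh2, Hba-x and Hbb-bh0 were below the filter.

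In the iron list 2 of 8 rose and 1 fell, where 3.02% of all genes rose and 4.24% fell. With totals made equal 1 was called. Tfrc, the transferrin receptor that feeds iron to red cell precursors, was at 25.4, 24.8, 70.3 and 18.6 in controls C1 to C4 and 64.4, 369, 118 and 156 in rested D1, D2, D3 and D8. The groups overlapped, since D1 lay below C3, and the change was 2.22 ± 0.63 (SE, adjusted p = 0.0448). Tfr2, a second transferrin receptor, rose by 1.07 ± 0.21. Epas1, which encodes the hypoxia factor HIF-2 alpha, fell by 1.27 ± 0.35. Both Tfrc and Epas1 lost their calls without C1, C2, C4, D2 or D8. Bmp4, described as a stromal signal of stress erythropoiesis in spleen, was at 4.44 ± 0.251 in controls and 3.81 ± 0.541 in rested mice (SD, n = 4 each), -0.18 ± 0.28 (SE, adjusted p = 0.654).

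**Figure D2:**
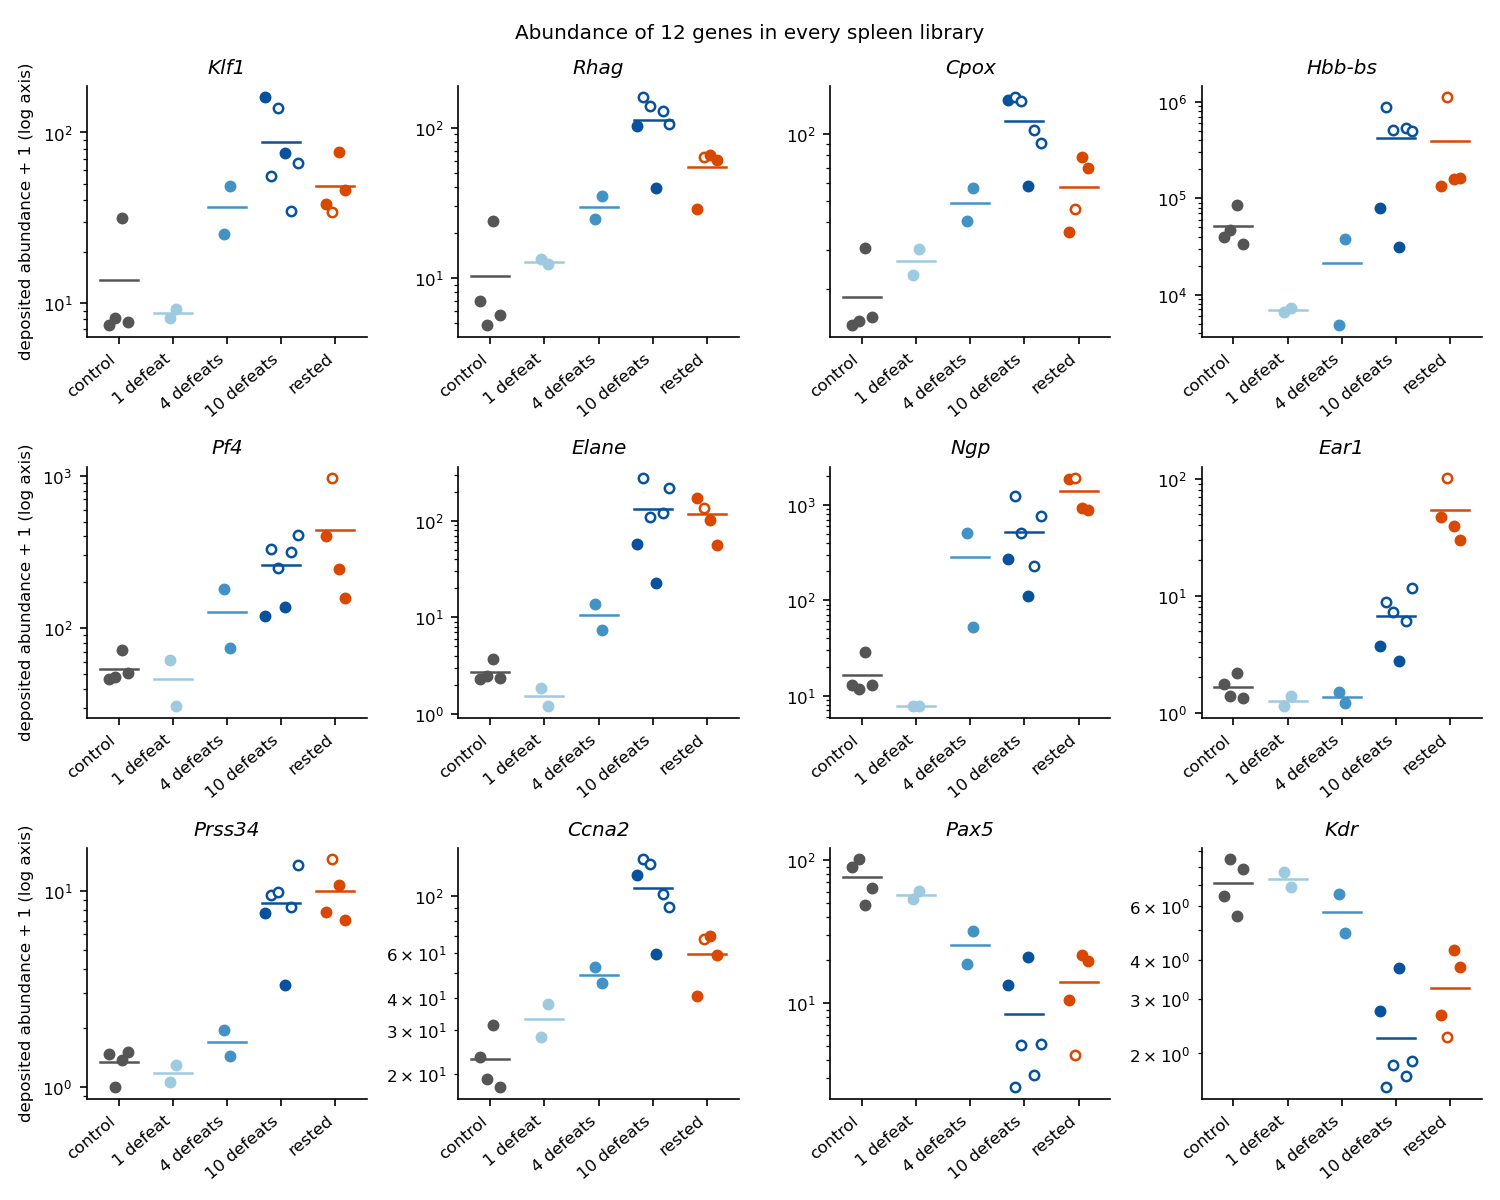
Deposited abundance + 1 on log axes for 12 genes in the 18 spleen libraries, by group; points are libraries, lines are group means and open points are the 5 libraries of steep length slope. Rested values of Ear1 lie from 29 to 99.4, above all libraries of the other groups, while Rhag and Cpox in every rested library lie below the highest 10-defeat library.

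Megakaryocyte and platelet genes rose together: 17 of 26 rose, where 3.02% of all genes did, and none fell. All 26 had a positive change, and in 23 all rested libraries lay above all controls, as in 8.93% of all genes. Without the steep libraries 20 rose, where 5.41% of all genes did. Pf4, platelet factor 4 (chr5:90772435-90773383), was at 45, 46.8, 71 and 49.4 in controls C1 to C4 and 403, 961, 243 and 157 in rested D1, D2, D3 and D8. The lowest rested value, in D8, was 2.21 times the highest control. The change was 2.72 ± 0.51 (SE, adjusted p = 0.00781). Its neighbour on the chromosome, Ppbp, which encodes another platelet chemokine (chr5:90768518-90770063), was at 52, 65.6, 72.6 and 59.2 in controls C1 to C4 and 322, 299, 337 and 186 in rested D1, D2, D3 and D8. Every rested library was above every control, and the change was 2.15 ± 0.33 (SE, adjusted p = 0.00247). Receptor and surface genes of platelets rose as well, with Gp9 at 2.16 ± 0.31, Gp1bb at 2.26 ± 0.37, Gp6 at 1.52 ± 0.23 and Treml1 at 1.79 ± 0.26. Rab27b, a granule transport gene, rose by 1.88 ± 0.22 (SE, adjusted p = 0.000288). Itga2b, the platelet integrin that also marks early megakaryocyte progenitors, was at 7.17, 9.6, 9.73 and 9.32 in controls C1 to C4 and 19.5, 77.7, 21.8 and 13.1 in rested D1, D2, D3 and D8. Library D2 was at 3.57 times the next rested library, and without D2 the change was 0.92. The change of 1.44 ± 0.41 (SE, adjusted p = 0.0467) held with D8 left out and lost its call without any other single library (adjusted p up to 0.132). Vwf at 0.69 ± 0.31, Gp5 at 1.13 ± 0.35 and Itgb3 at 0.44 ± 0.36 did not pass. With totals made equal 3 of the 26 were called, and 11 to 18 were called with single libraries left out, with losses of over 1.5 times without C1 or C4.

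Primary granule genes mark promyelocytes, the early neutrophil precursors. Of 17 genes 9 rose, where 3.02% of all genes did, and none fell, with 8 or 9 called in every leave-one-out fit. Elane, neutrophil elastase (chr10:79886247-79888215), was at 1.3, 1.43, 2.72 and 1.37 in controls C1 to C4 and 170.3, 135, 100.1 and 55.1 in rested D1, D2, D3 and D8. The lowest rested library was 20.3 times the highest control. The change was 5.34 ± 0.59 (SE, adjusted p = 0.000161). Mpo, myeloperoxidase (chr11:87793581-87804413), was at 1.87, 1.53, 4.13 and 1.48 in controls C1 to C4 and 82.5, 89.8, 86 and 36.5 in rested D1, D2, D3 and D8. Its rested values were tight except for D8, and the change was 4.51 ± 0.47 (SE, adjusted p = 0.000156). Prtn3, proteinase 3, lies beside Elane on chromosome 10 and rose by 5.33 ± 0.67 (SE, adjusted p = 0.000483). Ctsg, cathepsin G, rose by 4.55 ± 0.65, the ficolin Fcnb by 4.60 ± 0.53, Ms4a3 of granulocyte and monocyte progenitors by 5.09 ± 0.99, and Cebpe, the transcription factor that turns on secondary granule genes, by 3.83 ± 0.58. Members with broader expression did not pass: Calr at -0.44 ± 0.26, Srgn at 0.07 ± 0.19, Cst7 at 0.00 ± 0.16 and Gstm1 at -0.20 ± 0.44.

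Secondary granule genes changed most. Of 13 tested genes 11 rose, where 3.02% of all genes did, with a median of 3.34. Between 9 and 11 were called whichever library was left out. Ngp, neutrophilic granule protein (chr9:110419747-110423012), was at 12, 10.7, 27.4 and 12 in controls C1 to C4 and 1873, 1888, 921 and 888 in rested D1, D2, D3 and D8. Even D8, the lowest of the rested, was at 32.4 times the highest control. The change was 6.40 ± 0.70 (SE, adjusted p = 0.000156). Camp, the cathelicidin antimicrobial peptide, was at 11.4, 8.09, 26.3 and 5.24 in controls C1 to C4 and 1499.9, 8368, 382 and 587 in rested D1, D2, D3 and D8. The rested libraries differed 21.9-fold among themselves, D2 being highest, and the change of 6.78 ± 1.18 (SE, adjusted p = 0.00533) was 5.89 without D2. Ltf, lactoferrin (chr9:111019271-111042767), was at 3.21, 5.68, 8.92 and 4.39 in controls C1 to C4 and 233, 341, 183 and 155 in rested D1, D2, D3 and D8. The rested libraries differed 2.2-fold among themselves, all above the controls, and the change was 5.14 ± 0.64 (SE, adjusted p = 0.00046). Lcn2, lipocalin 2, which binds bacterial siderophores, rose by 5.48 ± 0.60 (SE, adjusted p = 0.000156), and Chil3, Cd177, Hp and Mmp8 rose by 4.89 ± 0.74, 3.97 ± 0.55, 3.34 ± 0.64 and 3.07 ± 0.52. Lyz2, lysozyme of all myeloid cells, did not pass at 1.03 ± 0.55.

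C/EBP factors bind sites that contain TTGCNNAA, so the promoters of Ngp (chr9:110419558-110419857) and Ltf (chr9:111019042-111019341), both on the plus strand of GRCm38.p6, are shown with matches to those letters on either strand in capitals. Ngp holds 2 matches, which begin 138 and 11 bases before the start, and Ltf holds 1, which begins 75 bases before.
Ngp: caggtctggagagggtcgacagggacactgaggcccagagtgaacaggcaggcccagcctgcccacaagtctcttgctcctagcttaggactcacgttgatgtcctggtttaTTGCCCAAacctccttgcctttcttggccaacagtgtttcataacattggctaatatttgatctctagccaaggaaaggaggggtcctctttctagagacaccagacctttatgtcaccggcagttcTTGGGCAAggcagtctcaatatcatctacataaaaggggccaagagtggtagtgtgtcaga
Ltf: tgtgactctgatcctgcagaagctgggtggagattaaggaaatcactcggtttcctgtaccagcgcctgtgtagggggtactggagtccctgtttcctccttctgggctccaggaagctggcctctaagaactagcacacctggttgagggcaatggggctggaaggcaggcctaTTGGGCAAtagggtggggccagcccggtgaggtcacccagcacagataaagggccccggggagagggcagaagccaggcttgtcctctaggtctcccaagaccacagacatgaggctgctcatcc
The motif was in 4 of 12 promoters of the secondary granule list (33.3%), in 4 of 17 of the primary granule list (23.5%) and in 7 of 27 of the mature neutrophil list (25.9%), against 10.8% of all promoters in the table and 8.83% of those of the tested genes. Lists without a called gene had such shares too, with 6 of 19 promoters of plasma cell genes (31.6%) and 3 of 11 of marginal zone macrophage genes (27.3%).

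Among 30 mature neutrophil genes 11 rose, where 3.02% of all genes did, and none fell. Without the steep libraries 14 rose, where 5.41% of all genes did. S100a9, a subunit of calprotectin (chr3:90692632-90695721), was at 114, 168, 206 and 92.8 in controls C1 to C4 and 9118, 47196, 2401 and 4191 in rested D1, D2, D3 and D8. The lowest rested library was 11.6 times the highest control, and D2 was 5.18 times the next rested library. The change was 5.86 ± 1.18 (SE, adjusted p = 0.011), and 5.01 without D2. Its partner S100a8 rose by 5.56 ± 1.14 (SE, adjusted p = 0.0119). Ly6g, the surface antigen that defines mouse neutrophils, was at 0.150, 0.464, 0.617 and 0.230 in controls C1 to C4 and 31.4, 79.9, 11.5 and 16.1 in rested D1, D2, D3 and D8. Rested D3, the lowest, was 18.6 times the highest control, and the change was 4.34 ± 0.63 (SE, adjusted p = 0.00169). Retnlg and Mxd1 rose by 3.53 ± 0.68 and 1.29 ± 0.23. Several receptors that neutrophils carry in blood did not pass: Cxcr2 was at 0.28 ± 0.27, Csf3r at 0.73 ± 0.34 and Fpr1 at 0.61 ± 0.44. Between 6 and 12 members were called with single libraries left out, moving by over 1.5 times without C1, C2, C4, D1 or D2. Stefin genes (Stfa1, Stfa2, Stfa2l1) are near-identical copies and were not called (Stfa2l1 with adjusted p = 0.0709).

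Genes of eosinophils and basophils rose in the rested spleen as well: 9 of 20 tested rose, where 3.02% of all genes did. None fell, and 8 to 10 were called in every leave-one-out fit. Their list total was 95.1 to 119 in controls and 311 to 1176 in rested mice. Ear1, an eosinophil-associated ribonuclease (chr14:43818765-43875517), was at 0.754, 0.388, 1.18 and 0.323 in controls C1 to C4 and 45.6, 99.4, 38.2 and 29 in rested D1, D2, D3 and D8. The lowest rested library was 24.5 times the highest control, with 4.89 ± 0.41 (SE, adjusted p = 2.3e-05), the smallest adjusted p of the named genes. After 10 defeats without rest Ear1 was at 1.78 to 10.6, below every rested library, a difference that was not tested. Ear6 rose by 4.72 ± 0.52 (SE, adjusted p = 0.000156) and Ear2 by 1.29 ± 0.30, and these copies are similar enough that reads may be shared between them. Epx, eosinophil peroxidase, was at 0.134, 0.331, 0.158 and 0.123 in controls C1 to C4 and 3.89, 8.86, 6.37 and 3.5 in rested D1, D2, D3 and D8. Its controls were at most 0.331, and the change was 2.42 ± 0.26 (SE, adjusted p = 0.000156). Prg2, major basic protein, rose by 3.48 ± 0.54. On the basophil side Prss34 was at 0.477, 0, 0.374 and 0.510 in controls C1 to C4 and 6.77, 13.4, 9.67 and 6.06 in rested D1, D2, D3 and D8. The change of this basophil protease was 2.86 ± 0.34 (SE, adjusted p = 0.000284). Mcpt8, another basophil protease, rose by 2.72 ± 0.53 and Hdc, which makes histamine, by 1.58 ± 0.25. Hdc is a member of the primary granule list too, so its rise is not particular to basophils here. Siglecf at 0.52 ± 0.25, Ccr3 at 0.33 ± 0.27, Il5ra at -0.73 ± 0.26, Cpa3 at 0.52 ± 0.27 and Fcer1a at 1.40 ± 0.42, surface receptors and a mast cell protease, did not pass.

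The promoter of Prss34 (chr17:25298144-25298443, plus strand, GRCm38.p6) is shown as one of those in this list that hold AGATAA, in capitals, here beginning 31 bases before the start.
Prss34: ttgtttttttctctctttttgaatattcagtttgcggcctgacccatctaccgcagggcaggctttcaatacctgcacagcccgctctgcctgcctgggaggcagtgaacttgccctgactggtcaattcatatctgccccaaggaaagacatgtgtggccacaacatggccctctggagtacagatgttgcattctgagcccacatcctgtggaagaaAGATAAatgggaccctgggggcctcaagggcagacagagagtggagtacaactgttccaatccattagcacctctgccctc
AGATAA was in 7 of 23 promoters of the eosinophil, basophil and mast cell list (30.4%) and in 7 of 22 of the megakaryocyte and platelet list (31.8%), beside the 11.2% of all promoters, and in 3 of 8 of the MHC class II list (37.5%), which had no called gene.

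**Figure D3:**
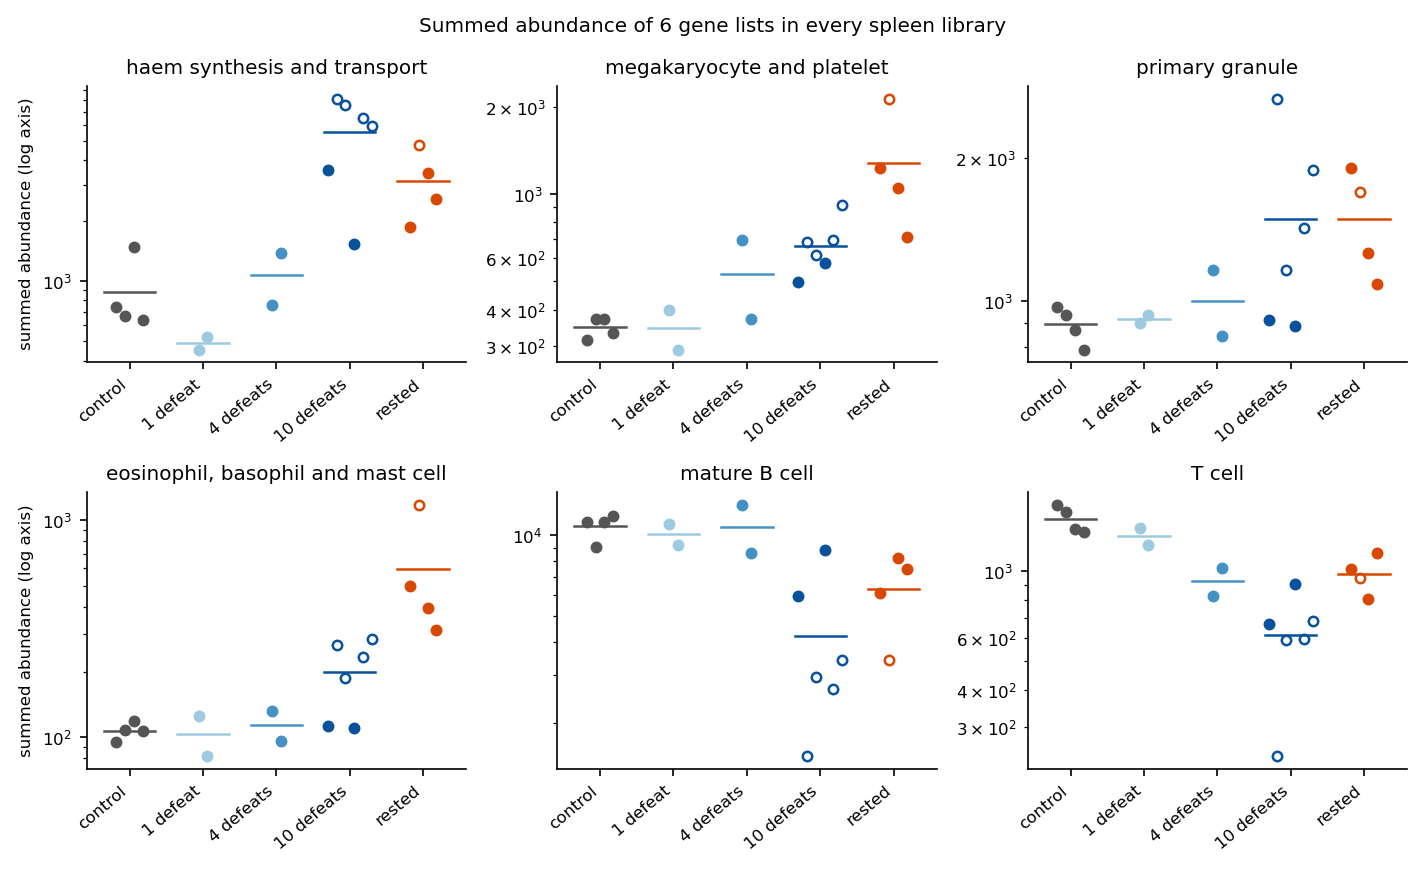
Summed abundance on log axes of 6 gene lists in each spleen library, by group, with group means as lines and the 5 libraries of steep slope as open points. In the eosinophil, basophil and mast cell list the rested libraries run from 311 to 1176 and the controls from 95.1 to 119, and in the T cell list from 810.2 to 1156 and from 1356 to 1668.

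Few monocyte genes were called. Of 22 genes 2 rose and 1 fell, where 3.02% of all genes rose and 4.24% fell, and the median was 0.02. Ly6c2, of inflammatory monocytes and some other cells, rose by 1.09 ± 0.28 (SE, adjusted p = 0.0319) and F13a1 by 1.63 ± 0.40 (SE, adjusted p = 0.0261). Fn1, fibronectin, which stroma also makes, fell by 1.16 ± 0.25 (SE, adjusted p = 0.0152). All 3 calls were lost without C1, C2 or C4. Ccr2, the receptor that lets monocytes leave the marrow, was at 7.89 ± 1.06 in controls and 16.3 ± 4.96 in rested mice (SD, n = 4 each), 0.92 ± 0.42 (SE, adjusted p = 0.154). Csf1r, at -1.19 ± 0.67, and Cx3cr1, at -0.44 ± 0.40, did not pass.

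Lipid mediators are named in the study's title. The leukotriene and lipoxygenase list had 6 of 13 genes higher, where 3.02% of all genes were, and none lower. With 1 library left out 3 to 6 were called, 3 each without C1, C2, C4 or D2. Mgst3, a glutathione transferase of the list, rose by 2.72 ± 0.65 (SE, adjusted p = 0.0233) and lost its call without any 1 of those 4 libraries. Alox5, 5-lipoxygenase (chr6:116410077-116461178), was at 0.998, 0.922, 0.895 and 1.49 in controls C1 to C4 and 5.95, 9.59, 3.69 and 3.37 in rested D1, D2, D3 and D8. All rested libraries were above all controls, and the change was 1.60 ± 0.30 (SE, adjusted p = 0.00781). Its partner Alox5ap rose by 1.35 ± 0.35 (SE, adjusted p = 0.0319), lost without C1, C2, C4, D1 or D2. Ltb4r1, the high-affinity receptor for leukotriene B4 and a member of the secondary granule list too, rose by 2.56 ± 0.45 (SE, adjusted p = 0.0059). Alox15, which oxygenates fatty acids in eosinophils and some macrophages, was at 0.249, 0.124, 0.455 and 0.495 in controls C1 to C4 and 1.72, 3.76, 2.33 and 1.6 in rested D1, D2, D3 and D8. The lowest rested value was 3.24 times the highest control, the change was 1.30 ± 0.19 (SE, adjusted p = 0.00169), and the call held in every alternative. In the 6 libraries after 10 defeats it was at 0.137 to 0.594. Alox12, the platelet lipoxygenase, was at 5.38, 6.33, 5.96 and 6.66 in controls C1 to C4 and 14, 11, 19.1 and 10 in rested D1, D2, D3 and D8. The groups did not overlap, the change of 1.00 ± 0.32 (SE, adjusted p = 0.0659) did not pass, and without the steep libraries it did (adjusted p = 0.00915). Ltc4s at -0.17 ± 0.31, the prostaglandin synthase Ptgs1 at -0.22 ± 0.26 and all 20 tested prostanoid genes did not pass. Alox15 is also a member of the eosinophil, basophil and mast cell list, and Alox12 of the megakaryocyte and platelet list. In the same libraries the granule and eosinophil lists rose as given above, and their part in these lipid genes was not tested.

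Cell cycle genes rose in part. Of 32 genes of G2 and mitosis 19 rose, where 3.02% of all genes did, with a median of 0.85. Among 30 S phase genes 7 rose, and without the steep libraries 16, where 5.41% of all genes did. Ccna2, cyclin A2 (chr3:36564865-36572150), was at 22.4, 18.2, 30.4 and 16.8 in controls C1 to C4 and 39.4, 67.2, 68.7 and 57.9 in rested D1, D2, D3 and D8. Rested D1 was the lowest and still above C3, and the change was 1.37 ± 0.27 (SE, adjusted p = 0.0098). Cdk1, its kinase, rose by 1.57 ± 0.39, Birc5, survivin, by 1.85 ± 0.46, and Ube2c, of the machinery that destroys cyclins, by 1.71 ± 0.39. Rrm2, which makes deoxynucleotides, rose by 1.63 ± 0.34 and Tk1, thymidine kinase, by 1.39 ± 0.39. Mki67, the common proliferation marker, was at 24.9, 16, 19.5 and 18 in controls C1 to C4 and 6.96, 14.4, 32.4 and 23.8 in rested D1, D2, D3 and D8. The rested values spanned the controls on both sides, with -0.19 ± 0.38 (SE, adjusted p = 0.734). Top2a at 0.23 ± 0.25, Cenpe at -0.34 ± 0.35 and Cenpf at 0.13 ± 0.32 did not pass either. With totals made equal 1 G2 and mitosis gene and no S phase gene were called. With single libraries left out 1 to 17 and 0 to 7 were called, with losses of over 1.5 times without C1, C2, C4, D2, D3 or D8, and for the S phase without D1 too.

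Stem and progenitor genes showed few calls: 3 of 23 rose, where 3.02% of all genes did, and the median was -0.29. Of the 3, Tal1 is also an erythroid gene. Angpt1, a ligand made by stem and niche cells, rose by 0.61 ± 0.17 (SE, adjusted p = 0.0414) and lost its call whichever of the 8 libraries was left out. Cd34 was at 8.33 ± 1.35 in controls and 8.96 ± 0.782 in rested mice (SD, n = 4 each), 0.10 ± 0.15 (SE, adjusted p = 0.644), and Meis1 at 2.72 ± 0.608 in controls and 2.02 ± 0.777 in rested mice (SD, n = 4 each), -0.32 ± 0.25 (SE, adjusted p = 0.377). Gata2, Myb and Flt3 were at -0.20 ± 0.31, 0.48 ± 0.22 and -0.75 ± 0.35. The niche signals Kitl, stem cell factor, and Cxcl12 were at 0.29 ± 0.17 and -0.27 ± 0.32, and neither passed.

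Of 26 red pulp macrophage genes 1 rose, a share near that of all genes (3.02%). It was Epor, which is on this list as well as the erythroid one. None of 11 marginal zone macrophage genes was called. Hmox1, haem oxygenase of red cell clearance, was at 282 ± 32.7 in controls and 265 ± 87 in rested mice (SD, n = 4 each), -0.14 ± 0.32 (SE, adjusted p = 0.775). The iron exporter Slc40a1 was at 114 ± 13 in controls and 141 ± 19.8 in rested mice (SD, n = 4 each), with all rested libraries just above all controls and no call (adjusted p = 0.266). The complement genes C1qa and C1qb, abundant in these macrophages, were at -0.08 ± 0.28 and 0.00 ± 0.25.

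Most lymphocyte genes had a negative change, and few passed the test. In the mature B cell list 1 of 26 fell, where 4.24% of all genes did, all 26 changes were negative with a median of -0.93, and in 17 all rested libraries lay below all controls, as in 18.1% of all genes. Pax5, the factor that maintains B cell identity (chr4:44524757-44710487), was at 87.9, 100, 47.6 and 63 in controls C1 to C4 and 9.51, 3.31, 20.7 and 18.8 in rested D1, D2, D3 and D8. The highest rested library was at 0.435 of the lowest control. The change was -2.62 ± 0.60 (SE, adjusted p = 0.0196), lost without C1, C2, C4 or D2 (adjusted p up to 0.0751). Cd79a, in contrast, was at 692, 665, 744 and 731 in controls C1 to C4 and 448, 206, 485 and 546 in rested D1, D2, D3 and D8. The groups did not overlap, D2 was lowest, and the change of -0.84 ± 0.62 (SE, adjusted p = 0.356) did not pass. Ighm and Ighd were at -0.84 ± 0.49 and -1.55 ± 0.64, and neither passed. Genes of B precursors went both ways, with 2 of 15 higher and 2 lower, where 3.02% of all genes were higher and 4.24% lower. Vpreb1, of the surrogate light chain, was at 0.347, 0.296, 0.871 and 0.539 in controls C1 to C4 and 3.97, 31.8, 1.15 and 2.11 in rested D1, D2, D3 and D8, and its partner Igll1 at 0, 0, 0.123 and 0.0360 in controls C1 to C4 and 2.76, 25.7, 0.624 and 1.43 in rested D1, D2, D3 and D8. Igll1 was listed at 0 in C1 and C2. Library D2 was at 8.01 and 9.28 times the next rested library, while all 4 rested libraries exceeded the controls, with 1.94 ± 0.55 (SE, adjusted p = 0.0439) for Vpreb1 and 2.10 ± 0.57 (SE, adjusted p = 0.0369) for Igll1. Both calls were lost without C1, C2, C4 or D1. Bach2, a repressor that restrains plasma cell formation, changed by -1.88 ± 0.45 (SE, adjusted p = 0.024) and Akap12 by -1.43 ± 0.34. None of 205 immunoglobulin V segments and none of 20 plasma cell genes was called.

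T cell genes had 2 of 30 lower, where 4.24% of all genes were, with a median of -0.81. In 20 all rested libraries lay below all controls, as in 18.1% of all genes. Without the steep libraries 14 were lower, where 10.7% of all genes were. Bcl11b, which fixes T cell fate, changed by -1.58 ± 0.38 (SE, adjusted p = 0.025) and Cd27 by -0.83 ± 0.22 (SE, adjusted p = 0.0369), both lost without C1, C2, C4, D1 or D2. Cd3e, of the T cell receptor complex, was at 58.4, 45.4, 44.7 and 50.5 in controls C1 to C4 and 25.7, 7.61, 27.4 and 33.6 in rested D1, D2, D3 and D8. The groups did not overlap, -1.21 ± 0.57 (SE, adjusted p = 0.169), and without the steep libraries the change of -0.77 passed (adjusted p = 0.00907). None of 21 natural killer genes (median -0.11), 10 MHC class II genes (median -0.52) and 20 dendritic cell genes (median -0.33) was called by limma. With totals made equal every one of these medians was lower, the one over all genes being -0.67, and with median-ratio rescaling the B and T cell medians were -0.68 and -0.58.

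Single genes of stroma and endothelium fell. In the stroma and white pulp list 5 of 26 fell, where 4.24% of all genes did, and none rose, with a median of -0.54. Myh11, smooth muscle myosin (chr16:14194535-14291372), was at 5.59, 6.26, 2.88 and 10.2 in controls C1 to C4 and 0.708, 0.249, 2.24 and 1.14 in rested D1, D2, D3 and D8. Every rested library was below every control, and the change was -1.78 ± 0.38 (SE, adjusted p = 0.0146). The collagens Col1a1 and Col3a1 changed by -1.53 ± 0.42 and -1.02 ± 0.24, and the platelet-derived growth factor receptors of mesenchymal cells Pdgfra and Pdgfrb by -1.27 ± 0.35 and -1.19 ± 0.33. The chemokines that organise white pulp, Cxcl13, Ccl19 and Ccl21a, were at -0.41 ± 0.41, -0.63 ± 0.38 and -0.78 ± 0.51, and none passed. In the endothelial list 1 of 19 fell, a share near that of all genes: Kdr, a receptor for vascular endothelial growth factor (chr5:75932827-75978458), was at 5.45, 7.47, 4.54 and 6.88 in controls C1 to C4 and 1.66, 1.27, 3.32 and 2.81 in rested D1, D2, D3 and D8. The rested libraries were all lower, with -1.15 ± 0.28 (SE, adjusted p = 0.0239). The sinusoidal receptors Stab1 and Stab2 were at -0.91 ± 0.31 and -0.78 ± 0.42. Stroma calls numbered 0 to 6 with single libraries left out, none of these 5 genes nor Kdr being called without C2, C4 or D2, and with totals made equal or equal outside globin 1 was called.

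**Figure D4:**
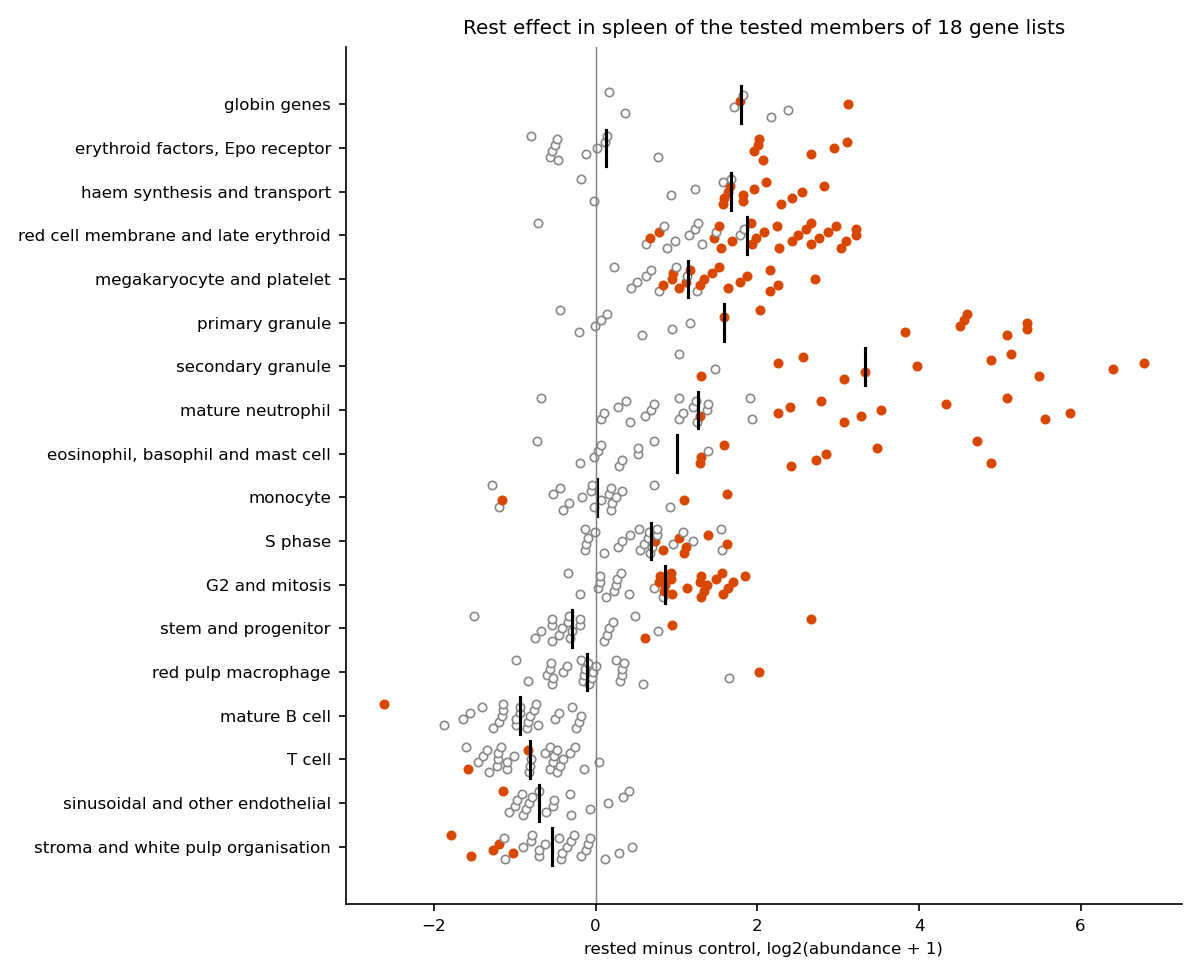
Change from control to rested spleen, in log2(abundance + 1), of the tested members of 18 gene lists; each point is a gene, filled where it passed at an adjusted p under 0.05, and the black bar is the median of the list. Secondary granule genes reach 6.78 with a median of 3.34, erythroid membrane genes centre on 1.88, and B cell genes centre on -0.93 with 1 filled point.

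Several of the largest falls were in genes active in many cell types. Kmt2d, a histone methyltransferase (chr15:98831669-98871204), was at 18.4, 16.1, 10.9 and 22.5 in controls C1 to C4 and 3.14, 1.46, 3.66 and 4.32 in rested D1, D2, D3 and D8. The highest rested value was 0.398 of the lowest control, and the change was -2.13 ± 0.28 (SE, adjusted p = 0.000885). Dync1h1, the heavy chain of dynein, was at 38.9, 54.3, 24.9 and 39.2 in controls C1 to C4 and 6.88, 6.18, 10.1 and 9.49 in rested D1, D2, D3 and D8. This change of -2.11 ± 0.31 (SE, adjusted p = 0.00177) and that of Kmt2d were the 2 falls among the named genes that kept their call in every alternative. Among these alternatives was the removal of each library's length trend, with length taken as the median over a gene's annotated transcripts. That median was 899 bases for Kmt2d and 599 for Dync1h1. Both were thus treated as short, and whether a longer transcript of them follows the slope was not tested. Sptan1, non-erythroid alpha spectrin, changed by -2.07 ± 0.47 (SE, adjusted p = 0.0195), the kinesin gene Kif21b by -1.99 ± 0.57 and the chromatin remodelling gene Arid1a by -1.92 ± 0.51. With the median over annotated transcripts as each gene's length, called falls had a median of 1823.5 bases. It was 1258 over all tested genes and 1255.5 for the rises. A gene whose annotated transcripts are mostly short counts as short here. After removal of each library's trend on length and GC content, 463 genes were higher and 733 lower, and the falls had a median length of 1563. An exact two-sided permutation test of the slope between rested and control libraries gave p = 0.171, with D1 and D2 below all controls, and the part of the length slope in these falls was not tested.

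Other lists had few calls. Of 26 interferon-stimulated genes 1 rose, a share near that of all genes (3.02%): Rsad2 at 1.79 ± 0.53 (SE, adjusted p = 0.0498). Isg15, a ubiquitin-like protein induced by interferon, was at 2.66 ± 0.86 (SE, adjusted p = 0.0671). In the glucocorticoid list Anxa1, also abundant in granulocytes, rose by 2.61 ± 0.63 (SE, adjusted p = 0.0241) and Sult1a1 fell by 1.06 ± 0.31, while Fkbp5, the most used marker of glucocorticoid action, was at 37.9 ± 10.1 in controls and 22.4 ± 14 in rested mice (SD, n = 4 each), -0.97 ± 0.55 (SE, adjusted p = 0.237). Among immediate early genes Egr3 fell by 1.51 ± 0.42 and Fos was at 0.01 ± 0.56. The amino acid response gene Asns rose by 1.00 ± 0.29 and the cystine carrier Slc7a11 fell by 0.87 ± 0.22. None of 13 mitochondrially encoded genes was called, with a median of -1.11. Without the steep libraries 9 were lower, where 10.7% of all genes were. Pancreas genes, which show carry-over of the neighbouring organ, summed to 22.1 to 196 in controls and 42 to 200.2 in rested mice, and Ctrl, a chymotrypsin-like protease gene, was at 3.84 ± 4.82 in controls and 0.398 ± 0.20 in rested mice (SD, n = 4 each) with a fall of 1.38 ± 0.40 (SE, adjusted p = 0.0462). Each of these 7 calls was lost without C1, C2, C4 or D2.

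The change with rest was compared with that in bone marrow, the normal site of adult blood formation, by an interaction over all 37 libraries. Of 14513 genes 299 had a higher change in spleen than in marrow (2.06%) and 230 a lower one (1.58%). No list gene other than 1 mature B cell gene was called in marrow itself. Of 36 red cell membrane genes 25 differed, all higher in spleen, where 2.06% of all genes were, with a marrow median of -0.45. Rhag was at 83.5 ± 10.3 in control marrow (SD, n = 3) and 62.5 ± 13.9 in rested marrow (SD, n = 4), a change of -0.43 ± 0.43, and the difference between tissues was 3.09 ± 0.58 (SE, adjusted p = 0.00479). Gata1 differed by 2.17 ± 0.48 (SE, adjusted p = 0.0101) and Epor by 2.44 ± 0.56 (SE, adjusted p = 0.0144), the latter not called without marrow C1 (adjusted p = 0.0539). Of 18 haem genes 11 differed, and of 18 erythroid factor genes 7, all higher in spleen, where 2.06% of all genes were. Of 32 genes of G2 and mitosis 17 differed, all higher beside the same 2.06%, Ccna2 by 1.56 ± 0.30 (SE, adjusted p = 0.00503).

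Granulocyte genes were already abundant in control marrow. Ngp was at 6803 ± 476 in control marrow (SD, n = 3) and 10249.6 ± 2608 in rested marrow (SD, n = 4), 0.56 ± 0.58, and differed by 5.84 ± 0.79 (SE, adjusted p = 0.000139), while Elane was at 392 ± 52.5 in control marrow (SD, n = 3) and 720.4 ± 64.9 in rested marrow (SD, n = 4) and differed by 4.46 ± 0.68 (SE, adjusted p = 0.0006). Of 13 secondary granule genes 9 differed, of 17 primary granule genes 7 and of 31 mature neutrophil genes 5. All of these were higher in spleen, where 2.06% of all genes were. Ear1 was at 187 ± 28.7 in control marrow (SD, n = 3) and 129.9 ± 56.8 in rested marrow (SD, n = 4). Its marrow change was -0.62 ± 0.46 and its difference 5.51 ± 0.63 (SE, adjusted p = 9.65e-06). In its list 8 of 22 genes differed, all higher in spleen, beside the 2.06% of all genes. Alox15 was at 34.3 ± 1.81 in control marrow (SD, n = 3) and 20.2 ± 8.11 in rested marrow (SD, n = 4), with opposite signs in the tissues and a difference of 2.12 ± 0.41 (SE, adjusted p = 0.00509).

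Megakaryocyte genes showed no called difference between the tissues (0 of 26 by limma), with medians of 1.15 in spleen and 0.91 in marrow. Pf4 was at 75.2 ± 18.4 in control marrow (SD, n = 3) and 196 ± 87.5 in rested marrow (SD, n = 4), a change of 1.29 ± 0.54 that did not pass, and the difference was 1.43 ± 0.73 (SE, adjusted p = 0.261). Mature B cell genes also had 0 of 26 called differences, with a marrow median of -1.36. Of 26 stromal genes 3 had a lower change in spleen, where 1.58% of all genes did, and of 20 endothelial genes 1. Myh11 differed by -1.77 ± 0.41 (SE, adjusted p = 0.0141), and Kdr by -1.55 ± 0.32 (SE, adjusted p = 0.00689). The number of genes called moved by over 1.5 times without marrow C1 (154), C2 (263), C4 (189), D1 (242) or D2 (295) and without spleen C1 (299), C2 (223), C3 (842), C4 (211), D2 (219) or D3 (852).

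**Figure D5:**
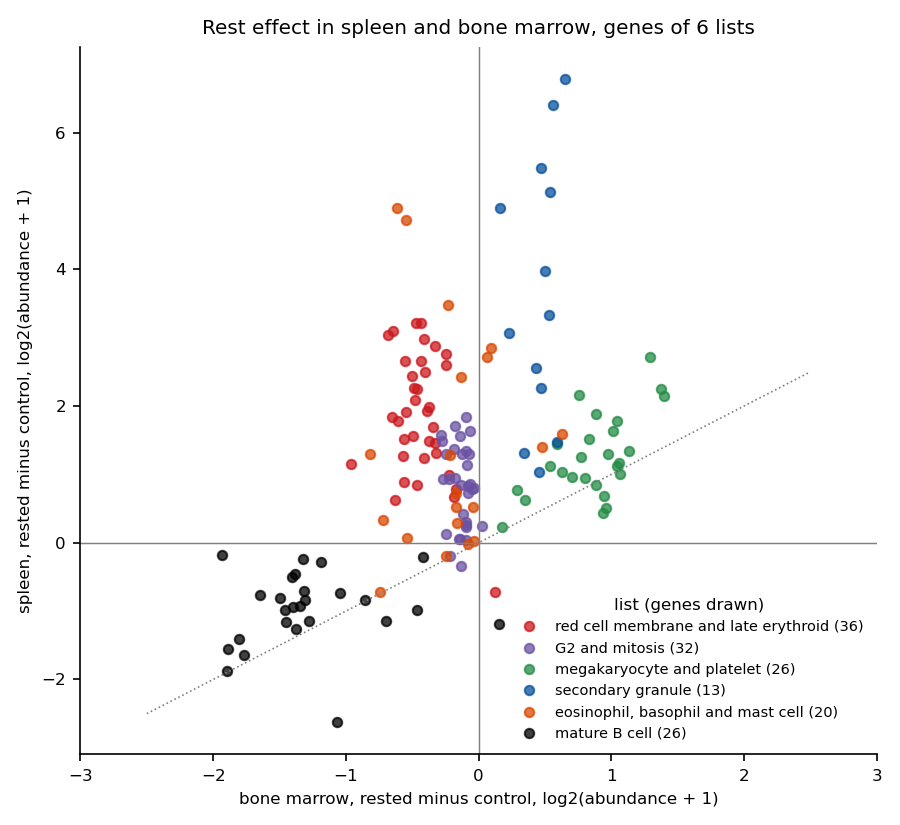
Change from control to rested in bone marrow (horizontal) and spleen (vertical), both in log2(abundance + 1), for the genes of 6 lists that were tested in both; points are genes, colours are lists, the dotted line marks equal change. Red cell membrane genes lie above 0 in spleen and below 0 in marrow except Slc2a1, megakaryocyte genes lie above 0 in both, and mature B cell genes lie below 0 in spleen and, except S1pr3, in marrow.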

How the data were processed

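RNA of whole mouse spleen and of flushed femur marrow was sequenced from stranded poly(A) libraries, per the labels' protocols. The authors deposited 1 table of 35885 genes by 37 libraries, whose values are a signal: an abundance per gene, scaled per library in a way not given in the sources used here. Kallisto 0.46.1, sleuth and GRCm38 are named in the submitters' processing notes. Gene names and positions came from GENCODE M21 (35626 genes matched), promoters from RefSeq on GRCm38.p6.

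Values were transformed as log2(value + 1) and fitted with limma 3.58.1 in R 4.3.3 (trended, robust variance) over 18 spleen libraries in 5 groups, with genes at 1 or more in at least 2 libraries (13945) and Benjamini-Hochberg adjustment at 0.05. The comparison of tissues used all 37 libraries in 10 groups (14513 genes). The script was tested on simulated data. Depth was inferred from how low values are spaced: 59.6% to 75.2% of them lay within 0.1 of a whole read in each spleen library, assuming fragments of 200 bases. It is an estimate, so no count test was run. Other settings covered scaling, filter, pseudocount, samples and single libraries left out, 23 for the spleen comparison.

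Described genes were the 12 largest rises and falls whose groups did not overlap, where the higher group averaged 2 or more, the 5 members of lowest p (or fewer) in every list with a call among 36 gene lists, and 37 fixed genes. Predicted genes, pseudogenes and antigen receptor segments were left out of the largest changes. Other list members were given as examples chosen after their values were seen. The members and lists were chosen with earlier results of these data known. Of 782 list entries 4 did not match a name in the table. Libraries with the same number in marrow and spleen were not taken as pairs, since the labels do not say that they share a mouse. Of the 15 shared numbers 5 had a correlation of deviations above 0.1, which does not decide the question. A few named genes are not reported here.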

Additional observations from a re-analysis of the deposited data

Results flagged for a closer look

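Control C3 lay apart from the other 3 controls, above them in Ngp (27.4), Elane (2.72), Tal1 (12.9), Hemgn (35.7), Abcb10 (20.02), Cpox (29.7), Ces2g (11.2), Car2 (262), Aqp1 (98), Mgst3 (45.2), Klf1 (30.6) and the globin share (23.1%), and below them in Bach2 (6.25). Rested D2 lay apart in Mgst3 (244), Hbb-bs (1118270) and the summed abundance (2652290). Rested D1 was low in Rhag (27.8) and Fn1 (4.78), and rested D8 was low in Mpo (36.5). Rested D3 was high in Asns (19.5) and Slc40a1 (170.2). Control C2 was high in Ctrl (11.1), and control C1 was low in Itga2b (7.17). Each value's gap to the nearest other library was above Dixon's 95% critical share of the range of a group of 4. Chance gives this in about 1 in 20 groups, and 252 groups were examined, many of them of genes that move together.

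The change with rest differed between spleen and marrow by limma's interaction test in the following named genes. It was higher in spleen, in log2 units, for Camp (6.13), Ngp (5.84), Ear1 (5.51), Ear6 (5.26), S100a9 (5.15), S100a8 (5.02), Ltf (4.60), Elane (4.46), Mpo (3.81), Epor (2.44), Klf1 (2.38), Gata1 (2.17) and Alox15 (2.12). It was lower in spleen for Sorl1 (-2.19), Sptan1 (-2.12), Col4a2 (-1.91), Anpep (-1.91) and Plec (-1.90). With 1 library of either tissue left out, 8 of these calls were lost. S100a9 and S100a8 lost theirs without spleen C4 or D2 or marrow C1, C2 or C4 (adjusted p up to 0.0695 and 0.0687 by limma). Klf1 lost it without spleen C1, C2 or C4 or marrow C1, C2, C4, D1 or D2 (up to 0.106), and Sorl1 without spleen C1, C2, C4, D1 or D2 or the same marrow libraries (up to 0.117). Sptan1 lost it without spleen C2 or D2 or marrow C1, C4 or D1 (up to 0.0615), and Col4a2 without spleen D2 or marrow C1 or C2 (up to 0.0573). Epor (0.0539) and Plec (0.0547) lost it without marrow C1.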

How the results depend on the processing

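None of the called changes of named genes, in spleen or between tissues, reversed in a setting that was run. Of the 102 named genes that were called, 36 kept their call in all 23 settings and 66 lost it in at least 1. The number of genes called between rested and control spleen was 1012, and it was 385 with totals made equal, 460 with totals made equal without globin genes, 650 without the 1- and 4-defeat libraries, 202 with a fold threshold of 1.2, 4427 with library weights and 2249 without the 5 libraries of steep length slope. Chosen after seeing the data, the fit of control and rested libraries without D2 called 1954. Leaving out 1 library gave 202 to 1094. The cause of these moves was not tested. The count that differed between tissues was 529, with 940 under quantile normalization and 154 to 852 with 1 library left out. With the shared number as a replicate block it was 564. The numbers are not taken as pairs, since the labels do not say that they share a mouse. In all 7 of 15 libraries matched best with their own number, and the count to be met by chance was not computed. Control and rested spleens share no number, so no block was possible there. Depth limits genes near 1 read, such as Igll1 in controls.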

Other observations

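Of 66 tested T cell receptor J segments 7 fell and none rose, while none of 102 T cell receptor V segments and none of 205 immunoglobulin V segments was called by limma. The reads behind the J segment values were not determined. Over all tested genes 4.24% fell and 3.02% rose. Of 496 processed pseudogenes 26 fell, a share near that of all genes, and 2 rose. Pseudogenes together took 6.91% ± 2.56 of the summed abundance in controls and 3.52% ± 0.748 in rested spleens (SD, n = 4 each), with an exact two-sided permutation p = 0.0286, and p = 0.0857 by the same exact test without D2.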
